A study of Saccharomyces cerevisiae with 6 samples.

Results

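DNA within 30 kb of the 32 chromosome ends of budding yeast was followed by whole-genome sequencing of W303-1a cells, a laboratory strain of Saccharomyces cerevisiae. The regions are the 1-kb bins whose midpoint lies within 30 kb of either end of chromosomes I to XVI, on the sacCer3 build, kept where every one of the 3 G1 libraries counted at least 0.3 and at most 3 times its own median. This left 557 of 968 bins near ends, among 11273 kept bins of the nuclear genome. The strain labels were orc2ΔN200, in which the first 200 residues of Orc2 are missing, orc2-I194E, in which a single residue of that N-terminal stretch is changed from isoleucine to glutamate, and WT, with full-length Orc2. Each strain was sampled 30 min after release into S phase and at 0 min, in G1 phase under 10 µg/ml α-factor. The growth protocol was shared by all strains, WT included, and depleted orc2-1 by a move from YPG to YPD during a nocodazole arrest. Azide was added at harvest. There was 1 library per strain and time, 6 in all, so no value below has a replicate, no difference between strains could be tested across samples, and intervals are 95% intervals that cover counting error only.

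Chromosome ends carry telomeres and, inside them, repeated X and Y′ elements and gene families for sugar use, cell-wall proteins and metal uptake that have near-identical copies at other ends. Orc2 belongs to the complex that marks replication origins (ORC) and helps to place the MCM helicase there in G1. Origins near telomeres are known in yeast to fire late in S phase or to stay silent, and the proteins Rif1 and Ku are known for keeping them late. The comparison addressed how much copy number the ends had gained by 30 min, and whether strains with a shortened or mutated Orc2 N-terminus differed in this.

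The library totals lay between 3235720 and 3376203 counts, and a kept bin held a mean of 256 to 271 counts. At the ORC2 gene itself (YBR060C, chromosome II) the copy levels crossed between the labels WT and orc2-I194E. In its middle bin, 361001 to 362000, the count relative to the flanking 20 kb was 2.67 in S and 1.76 in G1 for orc2-I194E, against 1.80 in S and 2.64 in G1 for WT. The libraries labelled orc2ΔN200 stood at 1.84 in S and 1.70 in G1 there. In the bin with the first codons, 362001 to 363000, they stood at 0.930 and 0.910. The selection-marker gene LEU2 (YCL018W) crossed between the WT and orc2-I194E labels in the same way, with 2.78 in S and 1.84 in G1 for orc2-I194E, against 1.96 in S and 2.93 in G1 for WT. At both genes the S library of each of these labels thus stood near the G1 library of the other. If the labels at 1 time are exchanged, the level of each of these labels sets S counts of 1 strain over G1 counts of another. Names below are therefore those of the labels, and the main results are also given with the WT and orc2-I194E labels exchanged at 1 time.

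Much of the outermost DNA could not be measured. Of the 411 bins removed near ends, 402 were below the minimum in all 3 G1 libraries, 317 had no count in at least 1 library, and 0 were above the maximum. The share of bins kept was 14.9% in the outermost 5 kb, 34.4% from 5 to 10 kb, 51.9% from 10 to 15 kb, and 90.0% from 25 to 30 kb, against 96.4% farther than 30 kb from an end. Kept bins per end ranged from 0 at the right end of chromosome I and 1 at the right end of chromosome VIII to 30 at the right end of chromosome VI. Ends with at least 10 kept bins, 28 in all, were ranked. The left end of chromosome IX had 7 bins and that of chromosome X had 9, so these, with chromosome VIII right, were measured and not ranked.

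As labelled, the share of end DNA at 30 min was above its G1 share in every strain, by more in orc2ΔN200 and orc2-I194E than in WT. With the S labels of WT and orc2-I194E exchanged, WT was not lower than either mutant, as given below. Relative copy is the mean count per kept bin over the mean of the library, so 1 is the genome mean. Over the 557 bins it was 1.11 in S and 1.02 in G1 for orc2ΔN200, 1.12 in S and 1.00 in G1 for orc2-I194E, and 1.04 in S and 1.01 in G1 for WT. The level of a region is log2 (share in S / share in G1), from summed counts. It was 0.12 in orc2ΔN200 (0.11 to 0.13), 0.16 in orc2-I194E (0.15 to 0.17) and 0.038 in WT (0.028 to 0.048). The difference from WT was 0.085 for orc2ΔN200 (0.071 to 0.10) and 0.12 for orc2-I194E (0.10 to 0.13), and both rest on the same WT libraries. The rest of the genome stood at -0.0068, -0.0086 and -0.0020 in the same order. Shares sum to a fixed total, so more copies at ends and fewer elsewhere cannot be told apart.

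The G1 libraries, taken before release, differed little at ends. The G1 share of end DNA over that of WT was 0.0030 on the log2 scale for orc2ΔN200 (-0.0073 to 0.013) and -0.020 for orc2-I194E (-0.031 to -0.010). The lower G1 share of orc2-I194E stands in the denominator of its level. With the sum of the 3 G1 libraries as a shared denominator its difference from WT was 0.099, and that of orc2ΔN200 was 0.088.

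The S libraries carried the result with their labels. With the WT and orc2-I194E labels of the S libraries exchanged, the levels became 0.12 for orc2ΔN200, 0.058 for orc2-I194E and 0.14 for WT, and the differences from WT became -0.013 and -0.078. With the G1 libraries exchanged they were 0.12, 0.14 and 0.058, with differences of 0.065 and 0.078. The level of orc2ΔN200 itself, 0.12, does not use the libraries whose labels were in doubt.

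Along the ends, the levels of the strains lay farthest apart in the outermost DNA. In the first 5 kb, where 25 bins at 9 ends were kept, the level was 0.10 in orc2ΔN200 (0.052 to 0.15), 0.19 in orc2-I194E (0.14 to 0.24) and -0.068 in WT (-0.12 to -0.015). The differences from WT were 0.17 and 0.26. From 5 to 10 kb, over 55 bins at 19 ends, the levels were 0.12 and 0.19 in the mutants and -0.0023 in WT. From 10 to 15 kb they were 0.12, 0.11 and 0.054, and from 15 to 20 kb 0.13, 0.15 and 0.043. From 20 to 25 kb the levels were 0.11 in orc2ΔN200, 0.16 in orc2-I194E and 0.046 in WT. As labelled, WT was thus below the genome mean in the outermost step and above it from 10 kb inward. In the outermost 5 kb relative copy in S was 0.999 in orc2ΔN200, 1.02 in orc2-I194E and 0.872 in WT. In G1 it was 0.931, 0.892 and 0.914. The low level thus followed the S library labelled WT, a label in doubt. This profile was not recomputed with the labels exchanged.

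Beyond 30 kb the mutant levels declined gradually toward the interior. Just inside that limit, from 25 to 30 kb, they were 0.13 in orc2ΔN200 and 0.17 in orc2-I194E, against 0.048 in WT. Just outside it, from 30 to 35 kb, they were 0.099 and 0.15, against 0.019 in WT. From 55 to 60 kb they were 0.055 and 0.11, against 0.048 in WT. The differences from WT were 0.015 and 0.022 from 60 to 65 kb, and -0.029 and -0.021 from 75 to 80 kb. The flanking 30 to 60 kb as a whole stood at 0.074 in orc2ΔN200, 0.12 in orc2-I194E and 0.036 in WT. Set against these flanks, end DNA was higher by 0.049, 0.035 and 0.0019.

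**Figure D1:**
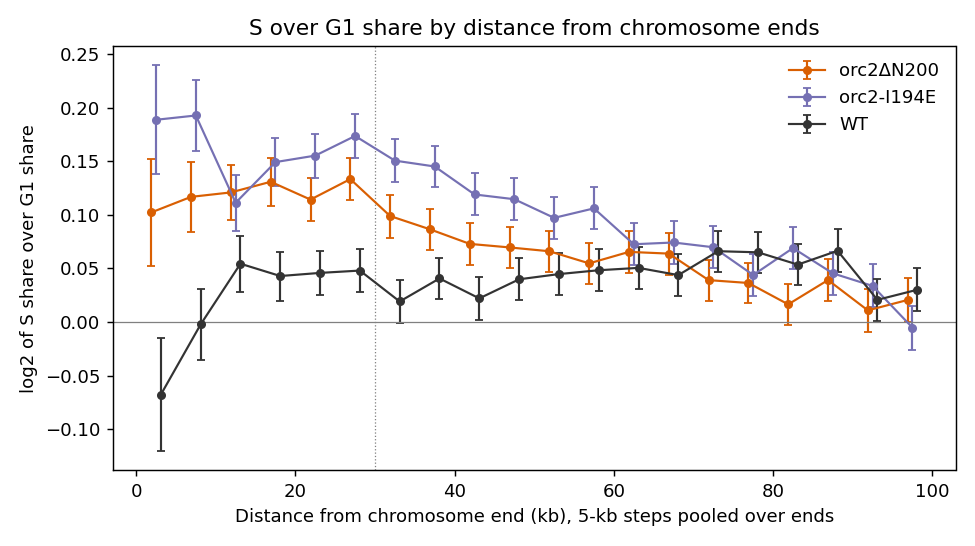
Level (log2 of S share over G1 share, vertical axis) in 5-kb steps of distance from the chromosome end (horizontal axis, kb), pooled over ends, for orc2ΔN200, orc2-I194E and WT as labelled. Bars are 95% counting intervals and the dotted line marks 30 kb. From 0 to 30 kb orc2ΔN200 stays between 0.10 and 0.13 and orc2-I194E between 0.11 and 0.19, both lower by 95 to 100 kb, while WT starts at -0.068.

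Different ends filled different steps, so the outer and inner parts were also compared within ends. Pooled, the outer 15 kb stood at 0.12 in orc2ΔN200, 0.15 in orc2-I194E and 0.019 in WT, and the inner 15 kb at 0.13, 0.16 and 0.046. The 18 ends with at least 3 bins in each part had a median difference, outer minus inner, of 0.0068 in orc2ΔN200, 0.031 in orc2-I194E and -0.043 in WT. The outer part was higher at 10, 11 and 7 of these 18 ends. No strain had a difference in 1 direction at nearly all ends.

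Single ends spread over a wide range in every strain, and most stood above the genome mean in the mutants. The 28 ranked ends ran from -0.084 to 0.36 in orc2ΔN200 (median 0.11), from -0.087 to 0.36 in orc2-I194E (median 0.13) and from -0.21 to 0.27 in WT (median 0.050). Levels were above 0 at 24 ends in orc2ΔN200, where 45.8% of all 404 windows of 30 kb were, and at 27 ends in orc2-I194E, where 41.6% of windows were. In WT they were above 0 at 18 ends, where 53% of windows were. The whole counting interval lay above 0 at 22, 24 and 11 ends (28.7%, 28.5% and 39.1% of all windows). It lay below 0 at 2, 1 and 5 ends (40.3%, 42.8% and 34.4%). The SD over ends was 0.11, 0.11 and 0.10, and that over the 376 windows farther inside was 0.11, 0.12 and 0.15. In orc2-I194E and WT the SD over ends was the lower of the 2, a difference that was not tested.

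The order of the ends in WT, from the highest level, was XIII right, IX right, XV right, V right, II left, V left, III left, XII right, XIII left, XI left, XVI right, II right, XII left, VI left, XIV right, IV right, VII right, VII left, XI right, XV left, X right, VI right, XVI left, VIII left, I left, III right, IV left and XIV left. In orc2ΔN200 the 5 highest were XIII right, XV right, V right, VI left and III left, and the 3 lowest were V left, VI right and IV left. In orc2-I194E the 5 highest were V right, VI left, XIII right, III left and III right, and the 3 lowest were IV left, VI right and V left. In each strain all 27 pairs of neighbours in the order had overlapping counting intervals. Overlap alone does not show that 2 ends have the same level, and differences between neighbours were not computed.

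**Figure D2:**
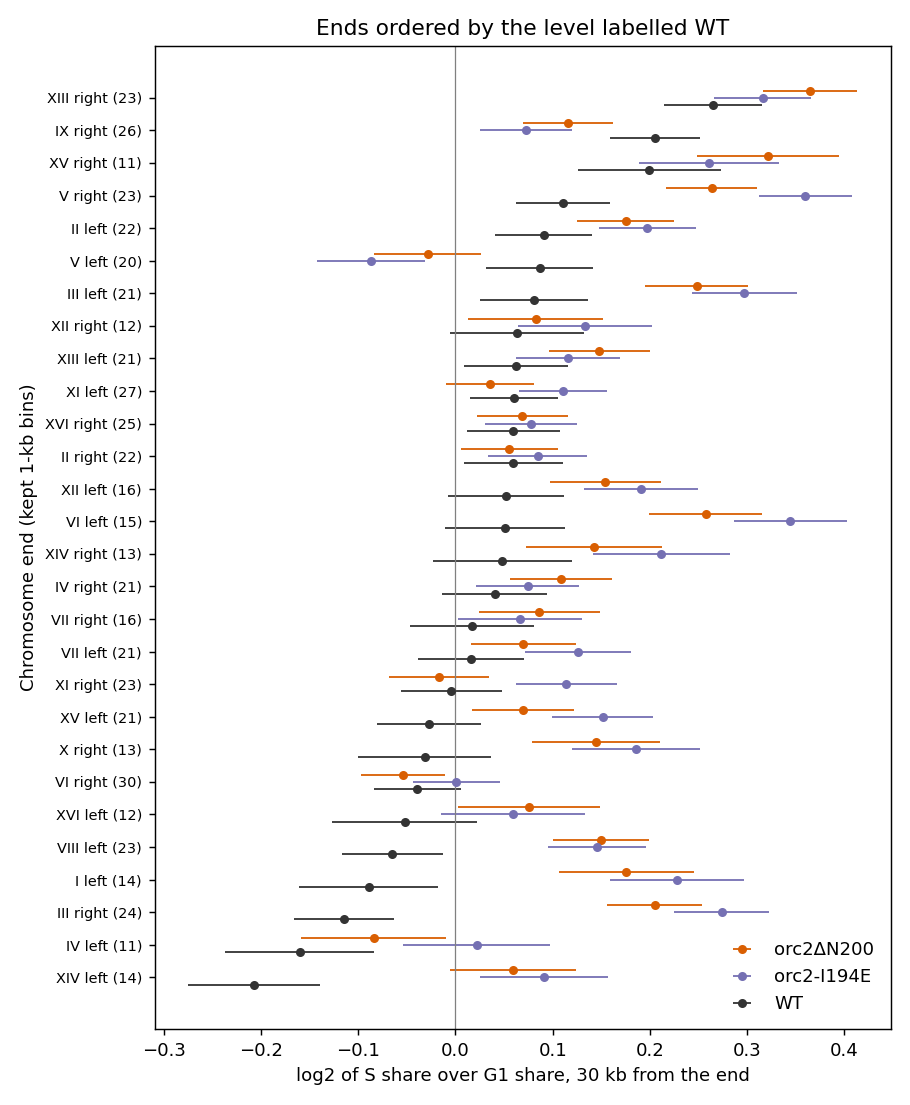
Level of the 30 kb at each of the 28 ranked chromosome ends (horizontal axis, log2 of S share over G1 share), ordered by the level labelled WT, with the number of kept bins in brackets. Bars are 95% counting intervals. The WT levels run from -0.21 to 0.27, and at most ends with a low WT level the mutant points lie to the right.

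Against WT, most ends were higher in each mutant. A difference of at least 0.1 on the log2 scale was counted, and the same count over all 30-kb windows of the genome was taken as the background. For orc2ΔN200, 11 of 28 ends were higher by that much, where 23.5% of all windows were, and 1 was lower, where 22% of windows were. For orc2-I194E, 16 ends were higher, where 25.2% of windows were, and 2 were lower, where 24.8% of windows were. By sign alone 22 ends lay above WT in orc2ΔN200 (48.3% of windows) and 26 in orc2-I194E (48% of windows). The counting interval of the difference lay above 0 at 15 and 16 ends (30.4% and 30.2% of windows) and below 0 at 2 and 2 (32.7% and 34.2%). The median difference was 0.090 and 0.11 over ends, and -0.0084 and -0.013 over interior windows. In G1, 0 of the 28 ends differed from WT by 0.1 in either mutant, where 0.248% (orc2ΔN200) and 1.49% (orc2-I194E) of windows did.

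These counts followed the S labels. With the S libraries exchanged, 0 ends were higher than WT by 0.1 in orc2ΔN200 and 1 in orc2-I194E, and with the G1 libraries exchanged 10 and 12 were. By sign, 11 and 4 ends lay above WT with the S labels exchanged, and 21 and 24 with the G1 labels exchanged. Shares of all windows were not computed with labels exchanged, so these counts have no background.

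The right end of chromosome III, which holds the silent mating cassette HMR, had the largest differences from WT among ranked ends. Its relative copy was 1.12 in S and 0.976 in G1 in orc2ΔN200, 1.19 and 0.982 in orc2-I194E, and 0.944 and 1.02 in WT. In the mutants S was above G1, and in WT it was below. The levels were 0.20 (0.16 to 0.25), 0.27 (0.23 to 0.32) and -0.11 (-0.17 to -0.063). The differences from WT were 0.32 (0.25 to 0.39) and 0.39 (0.32 to 0.46), while the G1 shares over WT were -0.067 and -0.058. With the S labels exchanged the differences turned to -0.011 and -0.27, and with the flanking 30 kb as zero they were 0.15 and 0.12. All 5 measured steps of this end lay above WT in both mutants. The widest by the mean of both differences was the step at 287001 to 292000 on chromosome III over OCA4, a gene of the oxidant-induced cell-cycle arrest group, with 0.17, 0.31 and -0.22. The step over GIT1, the gene of a glycerophosphoinositol transporter, had 0.23, 0.31 and -0.20. In orc2ΔN200 alone the difference at GIT1, 0.43, exceeded that at OCA4, 0.39. Widest is used below in the same sense, by the mean of both differences.

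The left end of chromosome I followed among the largest differences. Its relative copy was 0.964 in S and 0.853 in G1 in orc2ΔN200, 1.00 and 0.857 in orc2-I194E, and 0.836 and 0.890 in WT. The levels were 0.18, 0.23 and -0.089. Of the 14 kept bins of this end, 11 lay in the outer 15 kb and 3 in the inner 15 kb, and no step from 15 to 25 kb was measured. The difference from WT was 0.27 in orc2ΔN200 and 0.32 in orc2-I194E, mostly from bins of the outer 15 kb. Over 50 kb from the end it was 0.017 and 0.019, and with the flanking 30 kb as zero it was 0.41 and 0.46. With the S labels exchanged it was 0.0018 and -0.21. At 5001 to 10000, over the permease gene SEO1, the levels were 0.21 and 0.24 in the mutants and -0.21 in WT. At 25 to 30 kb, by FLO9, a flocculation gene, the order was turned, with 0.066, -0.0044 and 0.15 from 3 bins. Both differences from WT there, -0.079 (-0.30 to 0.14) and -0.15 (-0.37 to 0.071), had intervals that held 0. Counts for FLO9 are uncertain, as the FLO genes have near-identical stretches.

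At the left end of chromosome XIV WT had its lowest level of all ends. Relative copy was 1.06 in S and 1.01 in G1 in orc2ΔN200, 1.05 and 0.985 in orc2-I194E, and 0.898 and 1.04 in WT. The levels were 0.059, 0.091 and -0.21, so the mutants stood near the genome mean and WT well below it. The widest step lay at 25001 to 30000 over PFA3, a palmitoyltransferase gene, with 0.10, 0.15 and -0.20. Chromosome XIV left thus differed from WT by 0.27 in orc2ΔN200 (0.17 to 0.36) and by 0.30 in orc2-I194E (0.20 to 0.39). These were 0.042 and -0.15 with the S labels exchanged, and 0.10 in each mutant with the flanking 30 kb as zero.

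The other 5 of the 8 ends with the largest rises were VI left, VIII left, V right, X right and III left. At VI left the levels were 0.26, 0.34 and 0.051, with the widest step over AQY3, an aquaglyceroporin gene (0.34, 0.39 and 0.078). At VIII left they were 0.15, 0.15 and -0.065, with the widest step over MUP3, a low-affinity methionine permease gene (0.16, 0.13 and -0.14). V right stood at 0.26, 0.36 and 0.11, with the widest difference at YER188C-A. X right stood at 0.14, 0.19 and -0.032, with the widest difference at YJR151W-A. III left stood at 0.25, 0.30 and 0.081. Its outermost step, 1001 to 5000 at YCL075W, had 0.12, 0.26 and -0.30, the lowest WT value of any 5-kb step near an end. The left end of chromosome X, with 9 bins just under the minimum for ranking, had 0.24, 0.42 and -0.020.

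Among ranked ends, V left and IX right had a mean of both differences below 0. V left had a relative copy of 0.994 in S and 1.01 in G1 in orc2ΔN200, 0.973 and 1.03 in orc2-I194E, and 1.07 and 1.00 in WT. Its levels were -0.029, -0.087 and 0.087, with differences from WT of -0.12 (-0.19 to -0.038) and -0.17 (-0.25 to -0.096). They turned to 0.017 and 0.090 with the S labels exchanged, and were -0.037 and -0.033 with the flanking 30 kb as zero. The widest step was at 7001 to 10000 by YEL073C, with -0.039, -0.12 and 0.16. IX right had levels of 0.12, 0.073 and 0.21, and differences of -0.089 and -0.13, which turned to 0.054 and 0.053 with the flanking 30 kb as zero, and to 0.052 and 0.15 with the S labels exchanged. All 3 of its inner steps lay below WT in both mutants, with 0.0092, 0.020 and 0.21 at 410001 to 415000 over DCG1, while at 5 to 10 kb by YPS6, a gene of the yapsin protease group, the levels were 0.17, 0.27 and 0.25.

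XIII right was high in all 3 strains. Its relative copy was 1.28 in S and 0.996 in G1 in orc2ΔN200, 1.20 and 0.964 in orc2-I194E, and 1.17 and 0.973 in WT. The levels were 0.36, 0.32 and 0.27. The step over PRE5, a proteasome subunit gene, at 899001 to 904000, was the highest of WT near an end and had 0.38, 0.34 and 0.34. The step over ADH6, an alcohol dehydrogenase gene, at 909001 to 914000, was the highest of orc2ΔN200, with 0.41, 0.32 and 0.30. The highest of orc2-I194E lay at V right over DMC1, the gene of the meiotic recombinase, at 547001 to 552000, with 0.21, 0.46 and 0.13. At DMC1 the G1 share of orc2-I194E over WT was -0.11 (-0.22 to -0.0053), which adds to its level. VI right stood at -0.054 (-0.097 to -0.010), 0.00095 (-0.044 to 0.046) and -0.039 (-0.084 to 0.0055), and only the interval of orc2ΔN200 lay below 0.

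**Figure D3:**
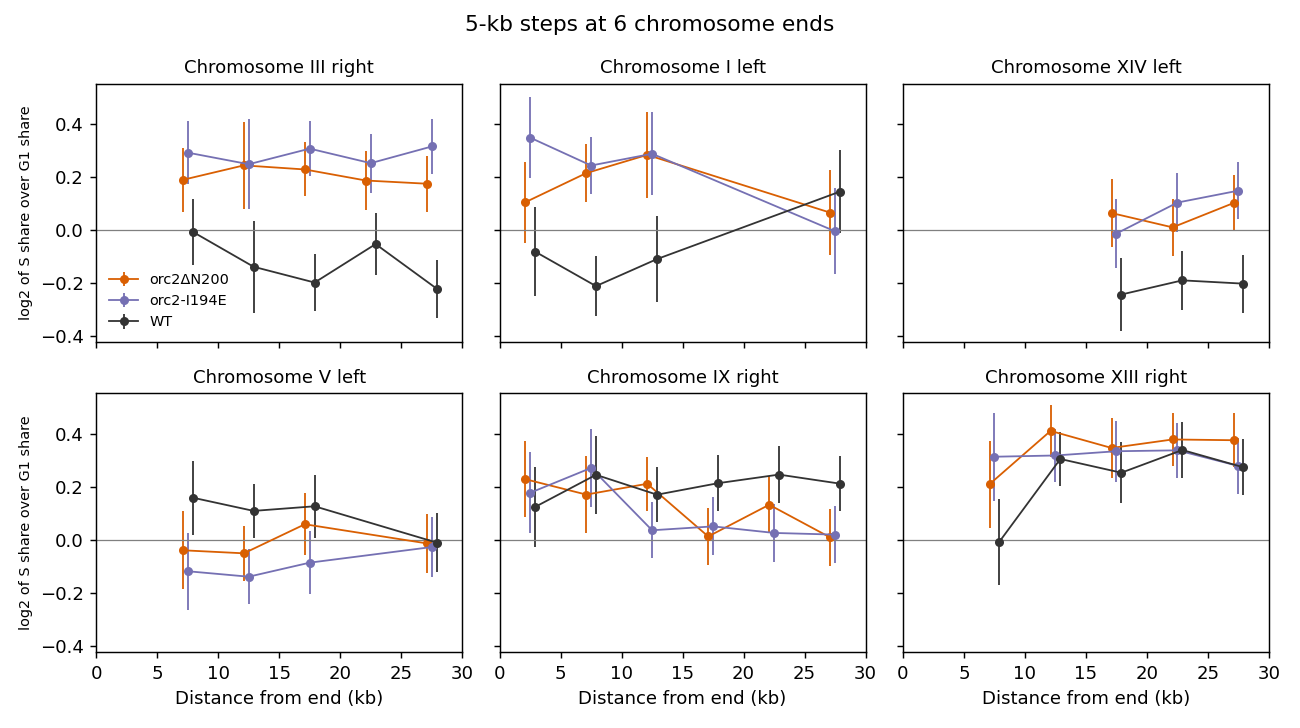
Levels (vertical axis, log2 of S share over G1 share) in 5-kb steps by distance from the end (horizontal axis, kb) at 6 ends, with 95% counting intervals; steps with fewer than 3 kept bins are left out. At III right and XIV left every step of WT lies below both mutants, at V left WT lies above them in the outer steps, and at XIII right the 3 profiles run close from 10 kb inward.

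Over all 111 measured 5-kb steps near ends, a difference from WT of at least 0.2 was counted. For orc2ΔN200, 21 steps at 12 ends were higher, where 11% of the 2263 steps of the genome were, and 4 were lower, where 8.88% were. For orc2-I194E, 33 steps at 15 ends were higher, where 13.7% of all steps were, and 4 were lower, where 12.7% were. As shares of the steps near ends these were 18.9% and 3.60% in orc2ΔN200, and 29.7% and 3.60% in orc2-I194E. These counts rest on the S labels in doubt and were not recomputed with the labels exchanged. Neighbouring steps can be copied by the same fork and are not independent.

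Both ends of a chromosome did not share a level. Over the 12 chromosomes with both ends ranked, Pearson's r between left and right ends was -0.15 in orc2ΔN200, -0.35 in orc2-I194E and -0.042 in WT, given as a description since the ends of a strain share libraries. Chromosome V held ends at 0.36 and -0.087 in orc2-I194E, and chromosome VI at 0.34 and 0.00095.

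Arm length had little relation to the level of an end. The 16 shortest arms measured 78.5 to 326 kb and the 16 longest 356 to 1082 kb. Pooled over bins, ends of short arms stood at 0.12 in orc2ΔN200, 0.15 in orc2-I194E and 0.025 in WT, and ends of long arms at 0.13, 0.16 and 0.054. The difference, short minus long, was -0.014 (-0.034 to 0.0065), -0.0089 (-0.029 to 0.012) and -0.029 (-0.050 to -0.0083). Only the interval of WT left out 0, and at 50 kb from the end that difference was 0.035. Over the 28 ranked ends Pearson's r between level and the log of arm length was 0.0014, -0.073 and 0.037, and Spearman's rho was -0.12, -0.14 and 0.059.

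Medians over ends gave another picture in the mutants. The median end of a short arm stood at 0.15 in orc2ΔN200, 0.19 in orc2-I194E and 0.048 in WT, and that of a long arm at 0.076, 0.091 and 0.059. The differences, 0.072 and 0.094 in the mutants, had the opposite sign to the pooled ones. XIII right, XV right and V right, high in all 3 strains, lie on long arms. Of the 15 ranked ends of short arms, 7 were higher than WT by 0.1 in orc2ΔN200 and 11 in orc2-I194E. Of the 13 of long arms, 4 and 5 were. Of all 404 windows of 30 kb, 23.5% were higher in orc2ΔN200 and 25.2% in orc2-I194E. The counts by arm rest on the S labels in doubt. They were not recomputed with these exchanged, and their difference was not tested. V left and IX right, the only ranked ends below WT in both mutants, lie on short arms.

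**Figure D4:**
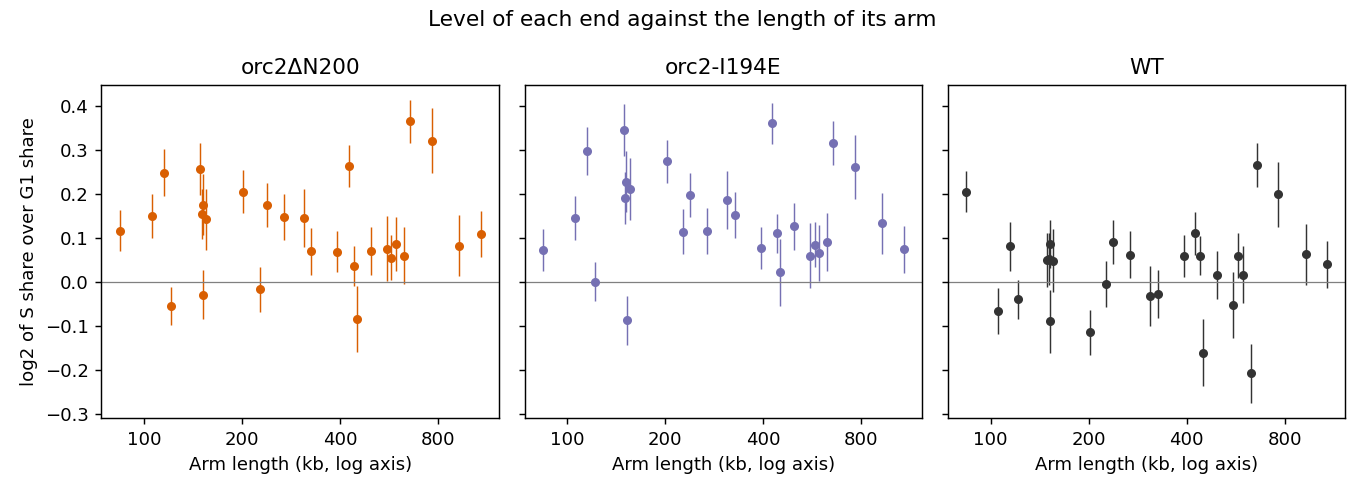
Level of each ranked end (vertical axis, log2 of S share over G1 share, with 95% counting intervals) against the length of its arm (horizontal axis, kb, log scale) for orc2ΔN200, orc2-I194E and WT. High and low ends occur on both short and long arms, and Pearson's r lies between -0.073 and 0.037.

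Genes near ends lay at 4.11 per 10 kb, against 5.43 per 10 kb farther inside. Each gene was given the level of the 5 kb centred on it, so neighbours share bins. Of 395 genes within 30 kb of an end, 240 had at least 3 kept bins. Their median level was 0.12 in orc2ΔN200, 0.15 in orc2-I194E and 0.039 in WT, and over all 6118 measured genes it was -0.019, -0.030 and 0.016. In orc2ΔN200, 48 of the 240 genes were higher than WT by at least 0.2, where 10.3% of all genes were, and 6 were lower, where 9.4% were. In orc2-I194E, 71 were higher, where 12.5% of all genes were, and 4 were lower, where 13.1% were. As shares of the genes near ends, 20.0% were higher in orc2ΔN200 and 29.6% in orc2-I194E. With the S labels exchanged 1 and 8 were higher, and with the G1 labels exchanged 35 and 45 were. The shares of all genes were not computed with labels exchanged. No list below was tested against these shares. Values of lists and single genes below are as labelled and were not recomputed with the labels exchanged.

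The classical repeat families of the ends were mostly out of reach. Of the 8 YRF1 genes, which encode the Y′-element helicases, 0 could be measured. Of the PAU genes, a family of cell-wall mannoproteins, 3 of 19 near ends could be. PAU13 at VIII left had 0.081, 0.17 and -0.0021, PAU20 at XV left 0.025, 0.21 and -0.0037, and PAU15 at IX right 0.14, 0.18 and 0.11. Of these 3, 0 in orc2ΔN200 (10.3% of all genes, 20% of genes near ends) and 1 in orc2-I194E, PAU20 (12.5% and 29.6%), were higher than WT by 0.2. Of 11 COS genes, which act in the sorting of membrane proteins to the vacuole, only COS9 was measured (0.082, 0.012 and 0.022). Its G1 share in orc2ΔN200 over WT was -0.17. Of 3 FLO genes only FLO10 was (0.030, 0.21 and 0.062). Values of all these families are uncertain, since the treatment of reads that match several copies is not given in the sources used here.

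Of 23 genes for sugar use near ends, 7 were measured. In orc2ΔN200 2 of them were higher than WT by 0.2 (10.3% of all genes, 20.0% of genes near ends), in orc2-I194E 3 were (12.5% and 29.6%), and 0 were lower. HXT8, a hexose transporter gene at X left, had a relative copy of 1.23 in S and 1.06 in G1 in orc2ΔN200, 1.30 and 0.955 in orc2-I194E, and 1.03 and 1.08 in WT. S exceeded G1 in both mutants and not in WT. Its levels were 0.22, 0.44 and -0.062, the largest differences of the list, and its G1 share in orc2-I194E over WT was -0.18 (-0.29 to -0.065). IMA5, an isomaltase gene next to it, had 0.22, 0.50 and -0.0014. MAL33, the gene of a maltose activator at II right, was at the other extreme with 0.033, 0.046 and 0.12. The median difference from WT was 0.11 in orc2ΔN200 and 0.069 in orc2-I194E, where that of all genes was -0.0073 and -0.0077.

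Genes for metal uptake and arsenic resistance kept 11 of 13 members. In each mutant 2 were higher than WT by 0.2, ARN1 and ARN2, transporter genes for iron bound to siderophores at VIII left, and 0 were lower. Of all genes 10.3% were higher in orc2ΔN200 and 12.5% in orc2-I194E, and of genes near ends 20.0% and 29.6%. ARN1 had 0.23, 0.17 and -0.078, and ARN2 0.16, 0.18 and -0.054. FIT1, the gene of a cell-wall mannoprotein of iron retention at IV right, was lowest by the mean of both differences, with 0.086, 0.069 and 0.12. The arsenic genes ARR1, ARR2 and ARR3, side by side at XVI right, had differences from WT between -0.072 and 0.0046 in orc2ΔN200 and between 0.031 and 0.075 in orc2-I194E. The list's median difference was 0.0046 and 0.061.

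The remaining lists were short. Of the phosphate genes, the transporter genes PHO89 at II right (0.057, 0.15 and 0.11) and PHO84 at XIII left (0.057, 0.10 and 0.15) were measured. Of these 2, 0 passed 0.2 in either direction. Of all genes 10.3% were higher and 9.4% lower in orc2ΔN200, and 12.5% and 13.1% in orc2-I194E. Of genes near ends 20% were higher and 2.5% lower in orc2ΔN200, and 29.6% and 1.67% in orc2-I194E. Of 6 AAD genes, putative aryl-alcohol dehydrogenases, 2 were measured. AAD14 at XIV left had 0.0058, -0.036 and -0.20, and AAD10 at X right 0.17, 0.13 and 0.016. Only AAD14 passed 0.2, in orc2ΔN200, to be read against the same shares. BIO2, biotin synthase, was the only vitamin gene of 9 near ends with a value (0.13, 0.011 and 0.050). Of 6 genes found for anaerobic cell-wall proteins (DAN and TIR), 0 lay within 30 kb.

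The silent mating cassettes keep unexpressed copies of the mating-type genes near both ends of chromosome III, and Orc2 is known for a part in silencing them. HMRA2 at III right had a relative copy of 1.04 in S and 0.914 in G1 in orc2ΔN200, 1.13 and 0.951 in orc2-I194E, and 0.913 and 0.981 in WT. Its levels were 0.19, 0.25 and -0.10. HMLALPHA1 at III left had 0.22, 0.39 and 0.072, from 3 kept bins. Of the 3 cassette genes measured, which HMRA1 completes, 2 in orc2ΔN200 (10.3% of all genes, 20.0% of genes near ends) and 3 in orc2-I194E (12.5% and 29.6%) were higher than WT by 0.2. These counts rest on the S labels in doubt and were not recomputed with them exchanged. HMRA1 and HMRA2 share bins. The cassettes share sequence with the mating-type locus, so their counts are uncertain.

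**Figure D5:**
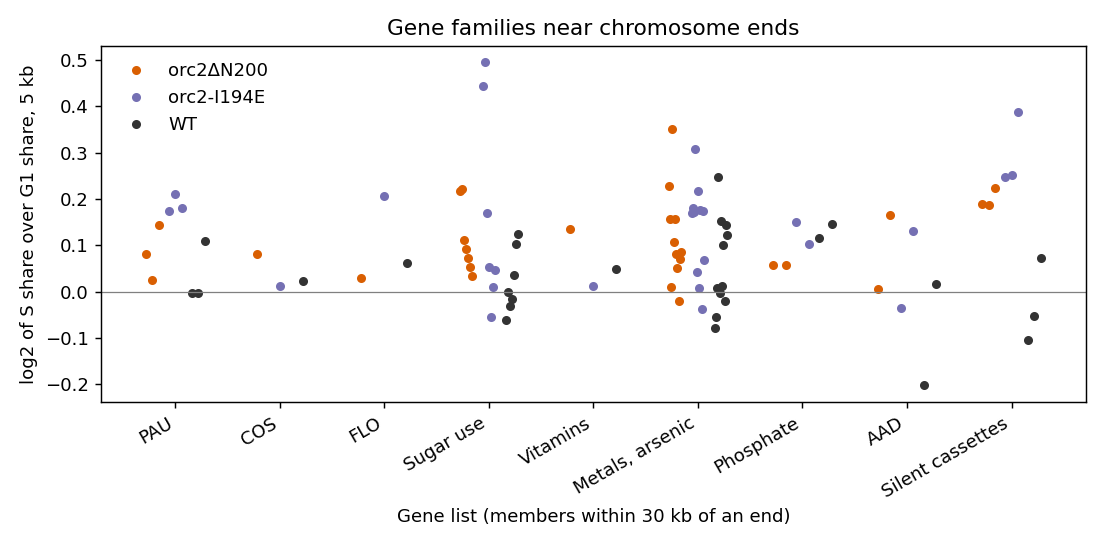
Level of the 5 kb around each measured gene of 9 gene lists (horizontal axis) within 30 kb of an end (vertical axis, log2 of S share over G1 share) for orc2ΔN200, orc2-I194E and WT; each point is 1 gene and neighbours share bins. As labelled, genes for sugar use run from -0.055 to 0.50 in orc2-I194E, and the cassette genes of WT lie lower than those of both mutants.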

How the data were processed

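Genomic DNA of 6 libraries was sequenced. The deposited files hold counts per 1-kb bin, whole numbers with no scaling, with bins of no count not listed. Per the submitters' processing notes the build was sacCer3, and R 4.3.0, bedtools 2.31.0, SAMtools 1.18, Picard 2.27.5 and Bowtie2 2.5.3 were used, with no roles given; filters, duplicates and multi-copy reads are not given in the sources used here. From these counts, levels were computed with numpy 2.4.6, SciPy 1.17.1 and pandas 2.3.3 in Python 3.11.15, and drawn with matplotlib 3.10.9.

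Bins of the rDNA array and bins with no count in a library were left out, besides the limits of 0.3 and 3 times the G1 median. Shares are of the total over kept bins. Intervals of levels are exact (Clopper-Pearson), those of relative copy exact Poisson, and those of differences come from the counting error of 4 summed counts. Windows ran from each end inward, with at least 10 kept bins per 30 kb and 3 per 5 kb. Centromeres were placed between the innermost genes of both arms in a gene table of assembly R64 (6431 nuclear genes). Genes named are the extremes of each list, the gene at the widest step of the 8 ends of largest rise and of the ends of largest fall (2 of a planned 4 were below 0), and the gene at the highest step of each strain; others (GIT1, FLO9, YPS6, IMA5, ARN2, PAU20, the ARR genes, HMRA1) were picked once values had been seen. The regions and lists were chosen with earlier results of these data known. Alternatives were another filter, distance, summary, denominator, zero and label assignment. The steps were tested on simulated data. No genome sequence was used.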

Additional observations from a re-analysis of the deposited data

Results flagged for a closer look

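At 5 of the 28 ranked ends the level of WT and those of both mutants lay on opposite sides of the genome mean. The interval of WT and that of at least 1 mutant were clear of 0 there. The share of all 30-kb windows that met this rule was not computed, so the count has no background and is not a trait of ends. The difference between strains was not tested, as each has 1 library per time. At the left end of chromosome I the levels were 0.18 in orc2ΔN200, 0.23 in orc2-I194E and -0.089 in WT. At the right end of chromosome III they were 0.20, 0.27 and -0.11, and at the left end of chromosome VIII 0.15, 0.15 and -0.065. At the left end of chromosome XIV they were 0.059, 0.091 and -0.21, where the interval of orc2ΔN200 held 0. At the left end of chromosome V the order was turned, with -0.029, -0.087 and 0.087, and the interval of orc2ΔN200 again held 0. Where it was recomputed, the contrast rested on the S labels in doubt. With these exchanged the differences of orc2ΔN200 and orc2-I194E from WT were 0.0018 and -0.21 at I left and -0.011 and -0.27 at III right. They were 0.042 and -0.15 at XIV left, and 0.017 and 0.090 at V left. VIII left was not recomputed with the labels exchanged.

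The bins that the G1 minimum removed had levels clear of 0 in the mutants, while a difference from WT was clear of 0 in orc2-I194E only. Over the 94 such bins near ends with a count in all libraries, the level was 0.090 in orc2ΔN200 (0.017 to 0.16), 0.26 in orc2-I194E (0.19 to 0.34) and 0.048 in WT (-0.029 to 0.12). Kept bins just inside the minimum (35 bins, lowest G1 count from 0.3 to 0.6 of the median) had 0.15, 0.24 and -0.0011. Those just outside it (38 bins, from 0.1 to 0.3) had 0.079 (-0.0067 to 0.17), 0.21 (0.12 to 0.30) and 0.060 (-0.029 to 0.15).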

How the results depend on the processing

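The S labels decided the differences from WT; the cause was not tested for any value here. With the WT and orc2-I194E labels of the S libraries exchanged, the levels of orc2-I194E and WT at ends were 0.058 and 0.14, and the differences of orc2ΔN200 and orc2-I194E from WT -0.013 and -0.078. By sign 11 and 4 ends lay above WT. Then 0 and 1 ends were higher by 0.1, and 1 and 8 genes by 0.2. Shares of all windows or genes were not computed with labels exchanged. The difference between short and long arms was then -0.030 in orc2-I194E and -0.0082 in WT. Single ends reversed as well, III right (-0.011 and -0.27), V left (0.017 and 0.090), IX right (0.052 and 0.15) and, in orc2-I194E, I left (-0.21) and XIV left (-0.15). With the G1 labels exchanged no difference from WT over all ends, or at the single ends just named, reversed. The levels of orc2-I194E and WT were 0.14 and 0.058, the differences 0.065 and 0.078, the G1 controls 0.023 and, reversed in orc2-I194E, 0.020, and 45 genes were higher in orc2-I194E.

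Zero set to the flanking 30 kb gave levels of 0.049, 0.035 and 0.0019 and differences of 0.047 and 0.033. In orc2-I194E 17 ends then lay above WT and 9 by 0.1. Short minus long arms was -0.079, -0.068 and -0.12, and IX right reversed to 0.054 and 0.053. III right was then 0.15 and 0.12, XIV left 0.10 in each mutant, V left -0.037 and -0.033, and I left 0.41 and 0.46. Within 20 kb fewer ends had 10 bins, and 13 and 15 lay above WT, 9 by 0.1 in orc2-I194E, with arm differences of -0.030 in orc2-I194E and -0.054 in WT. Within 50 kb the mutant levels were 0.10 and 0.14, the orc2ΔN200 difference 0.068, and the arm differences 0.024, 0.027 and 0.035, that of WT reversed, and I left was 0.017 and 0.019. The median over bins gave 0.14 for orc2-I194E and 0.015 for its outer minus inner part. The sum of the G1 libraries gave orc2-I194E 0.14 and a difference of 0.099, and leaving out the outermost 10 kb a difference of 0.10. The median over ends gave arm differences of 0.072 and 0.094 in the mutants. The median over ranked ends, chosen after seeing the data, gave 0.11, 0.13 and 0.050. The other 102 recomputed values of main results stayed within their counting interval or within 1.5 times of a count, those without the G1 count filter among them. Some of these could not change, as the exchanged libraries do not enter them. Examples are the orc2ΔN200 level under either exchange and the G1 controls under the S exchange. The planned count of ends above WT in both mutants was given for each mutant instead, since both share the WT libraries. Depth limits single ends and more so 5-kb steps, whose counting intervals often hold 0. No paired analysis was possible because a difference between strains rests on 1 library per strain and time; S and G1 of a strain enter every level as a ratio, and the rise over G1 was not tested across the 3 strains.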
